A study of Homo sapiens with 148 samples.

Results

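Retinoic acid signalling was described here through 10 genes: 3 enzymes that break retinoic acid down (CYP26A1, CYP26B1 and CYP26C1), 3 that make it (ALDH1A1, ALDH1A2 and ALDH1A3), its 3 nuclear receptors (RARA, RARB and RARG) and the retinaldehyde reductase DHRS3. They were chosen by name from the 49085 gene names of a table of mean transcript levels. All 10 were present, each as 1 entry of the table.

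The series followed H9, an established human embryonic stem cell line, through a stepwise pancreatic differentiation in culture. RNA-seq was made on 12 of its 148 samples, as 2 replicates at each of 6 stages: undifferentiated wild-type hESCs, definitive endoderm (DE), primitive gut tube (PGT), pancreatic progenitors (PP), a stage written PH, and organoids with β cells grown from stem cells (SC-β). The table held 1 mean TPM value per stage, so the spread between replicates is not known here, no comparison could be tested, and neighbouring stages in an order of levels cannot be told apart. TPM, the abundance of a transcript in its library, is scaled for transcript length and for the total of each library, which allows levels of different genes to be set side by side. In bulk RNA, fewer cells of a type and less RNA per cell cannot be told apart.

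DE, PGT, PP and SC-β came from the same line and 1 series of media, so each later stage had also had the agents of the earlier ones. DE was collected on day 4, after Activin A with CHIR99021 and then Activin A alone. The growth factor KGF was first listed for that same day. PGT was collected on day 7, after KGF. Retinoic acid was first listed for that same day, at 2000 nM in the media of days 7 and 8 with KGF, SANT1, PdBU, Y27632 and, on day 7, LDN193189, and the methods do not say whether PGT cells were taken before or after that change of medium. It was continued at 100 nM with KGF, SANT1 and Y27632 in the media given from day 9 to day 13, and PP cells were collected on day 14. The PP cells had therefore been in retinoic acid for the days before collection. As for PGT, the methods do not say whether DE and PP cells were taken before or after the new medium of that day. Retinoic acid was kept at 100 nM in the media of days 14 and 16 and lowered to 25 nM in those of days 18 and 20. These media also held betacellulin, XXI, Alk5 inhibitor II, T3 and, up to day 16, SANT1. None was listed for days 21 to 35, and SC-β organoids were collected on day 35. The culture that gave PH and its day of collection were not given in the sources used here.

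Vitamin A reaches cells as retinol, which is oxidised to retinaldehyde and then, by the ALDH1A dehydrogenases, to retinoic acid. Retinoic acid binds RAR receptors, which sit on DNA with RXR partners at paired half-sites, and CYP26 enzymes of the cytochrome P450 family inactivate it by oxidation. CYP26A1, RARB and DHRS3 are also classical targets of the receptors, and retinoic acid made in the mesoderm around the gut helps to set the position and growth of the pancreas.

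Because target genes of this pathway are recognised by direct repeats of a short half-site, the 250 bases before each annotated start of the 10 genes were searched in RefSeq sequence (GRCh38.p14). Both strands were read for any pair of half-sites in the same orientation, each being AGGTCA, its variant AGTTCA, the variant GGGTCA or the variant GGTTCA, with 5 bases between them. The genes had 19 such windows. The repeat was found in 2 of them, 1 of CYP26A1 and 1 of RARB, against 26 of all 35116 windows (0.0740%). It was in 0 of 70 windows of the other retinoid genes described further on. The same half-sites spaced by 1 base were in 34 of all windows (0.0968%) and spaced by 2 bases in 11 (0.0313%), and neither spacing was found in a window of the 10 genes. The 2 matches are printed with 6 bases on each side, with the half-sites in capitals.
RARB, chr3:25428204-25428232, + strand: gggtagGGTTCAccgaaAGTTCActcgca
CYP26A1, chr10:93073797-93073825, + strand: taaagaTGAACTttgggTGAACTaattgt
In RARB the repeat was read on the strand of the gene, and 36 bases lay between it and the start annotated at 25428263. In CYP26A1 it was read on the opposite strand, as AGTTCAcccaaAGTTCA, and 73 bases lay between it and the start at 93073893. In GENCODE release 44 both matches also fall in an untranslated first exon of transcripts that start further upstream, 3 of RARB and 1 of CYP26A1. The half-sites of both matches were the variants AGTTCA or GGTTCA, in genes already known as targets of the receptors. The counts of windows therefore describe this search and are no test of enrichment. A match of letters is a description and not a binding site, and nothing in the RNA table reads binding there.

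**Figure D1:**
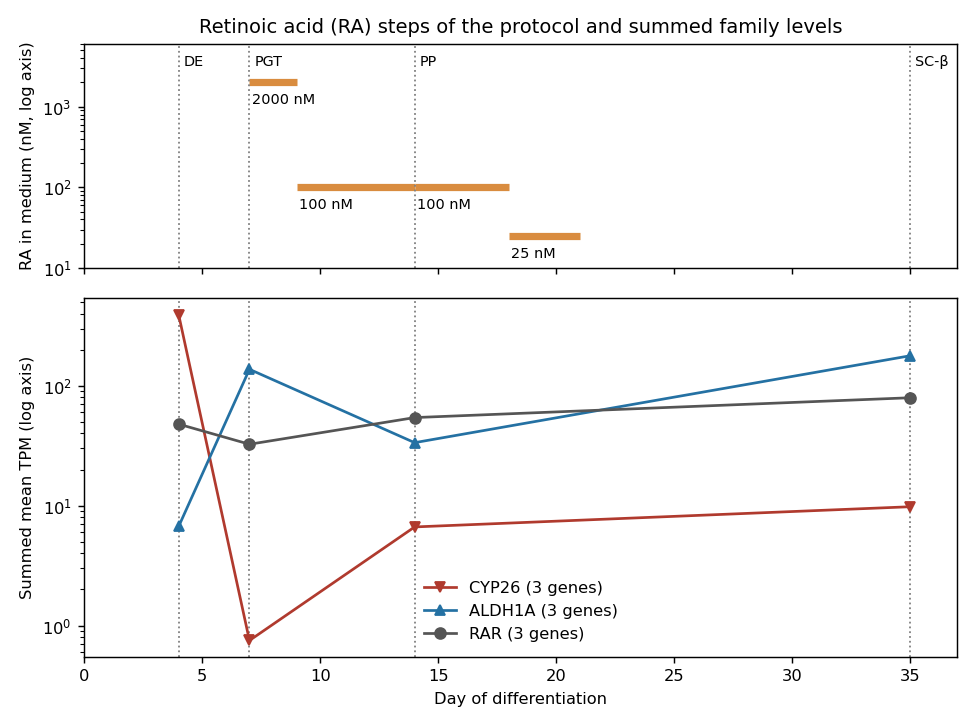
The upper panel gives the retinoic acid concentration in the medium (nM, log axis), each line running from the first day of a medium to the first day of the next, and the lower panel the summed mean TPM (log axis) of the 3 CYP26, 3 ALDH1A and 3 RAR genes at the 4 stages with a collection day, marked by dotted lines. The CYP26 sum was 392 TPM on day 4 and 0.750 TPM on day 7, while the ALDH1A sum was 6.70 and 137 TPM.

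The CYP26 family changed its leading enzyme along the series. CYP26A1 (ENSG00000095596.12, hg38 chr10:93073475-93077885, + strand), the enzyme that clears retinoic acid in the early embryo, was at 15.0 TPM in hESCs, 392 in DE, then 0.426 in PGT, 1.65 in PP, 0.224 in PH and 2.68 in SC-β. DE stood apart, and the 3 lowest stages, PP, PGT and PH, were all under 2 TPM. On the scale of log2(TPM + 1), which is used for every log2 ratio here and understates changes of low genes, it rose by 4.62 at the step to DE (26.1-fold in TPM). At the step to PGT it fell by 8.11 on the log2 scale, a TPM 919-fold lower.

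CYP26B1 (ENSG00000003137.9, chr2:72129238-72147862, − strand), the family member known from the hindbrain, limb and gonad, had another order. Its levels were 0.179 TPM in hESCs, 0.0384 in DE, then 0.0465 in PGT, 4.84 in PP, 4.18 in PH and 7.04 in SC-β. It was thus under 1 TPM in hESCs, DE and PGT and above 4 TPM in PP, PH and SC-β. The log2 ratio of PP over PGT was 2.48, and that of SC-β over PP was 0.46, under the 2-fold limit used for calling a change. CYP26C1 (ENSG00000187553.10, chr10:93060798-93069540, + strand), a close relative, lies 3934 bases before CYP26A1 with 0 protein-coding genes between them. It stayed low, from 0.0750 TPM in SC-β to 0.316 in DE, and never reached 1 TPM, also in DE, where its neighbour was at 392.

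Summed, the 3 breakdown enzymes gave 15.3 TPM in hESCs, 392 in DE, then 0.750 in PGT, 6.64 in PP, 4.49 in PH and 9.79 in SC-β. CYP26A1 supplied 98.1% of the sum in hESCs and 99.9% in DE. CYP26B1 supplied 72.8% in PP, 93.0% in PH and 71.8% in SC-β.

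**Figure D2:**
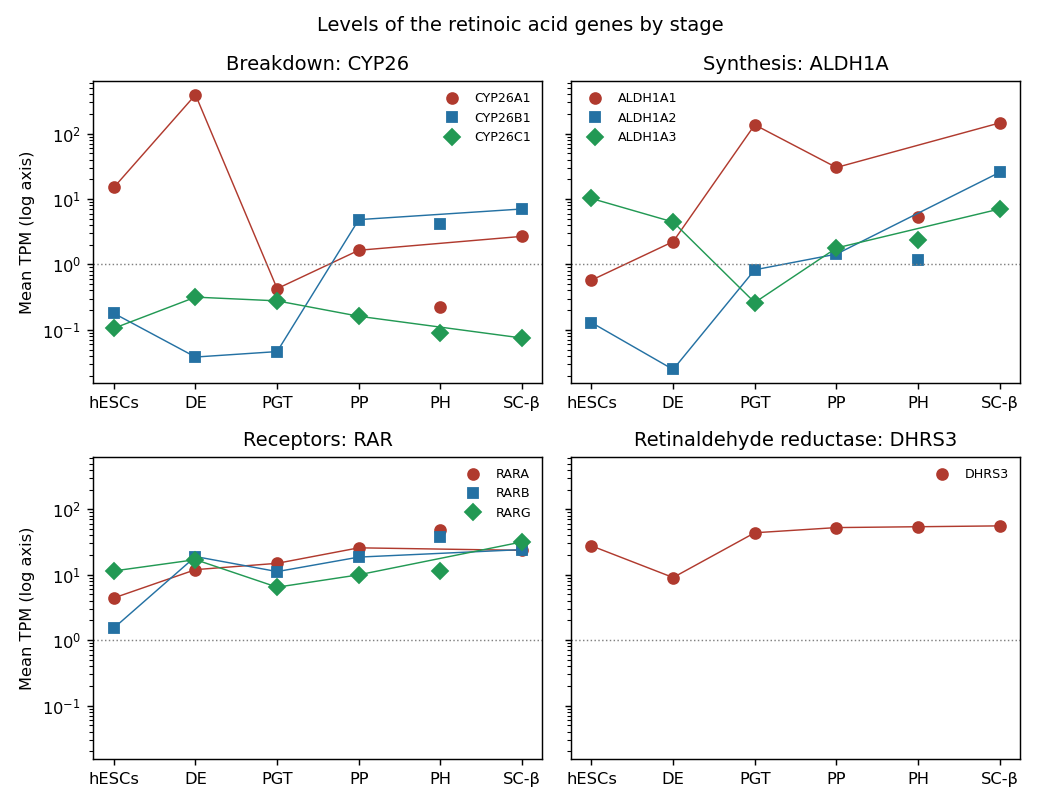
Mean TPM (log axis) of each gene at the 6 stages, in panels by role, with lines joining hESCs, DE, PGT, PP and SC-β and PH left unjoined; the dotted line is 1 TPM. CYP26A1 peaked at 392 TPM in DE, ALDH1A1 was at 136 TPM in PGT and 145 in SC-β, and the receptors stayed between 1.53 and 48.0 TPM.

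The synthesis enzymes moved at other steps. ALDH1A1 (ENSG00000165092.13, chr9:72900671-73080442, − strand), an abundant retinaldehyde dehydrogenase that also acts on other aldehydes, was at 0.574 TPM in hESCs, 2.23 in DE, then 136 in PGT, 30.3 in PP, 5.25 in PH and 145 in SC-β. PGT and SC-β were its high stages and PP lay between them and the rest. The log2 ratios were 5.41 for PGT over DE (61.1-fold in TPM), -2.13 for PP over PGT and 2.23 for SC-β over PP. PH was 5.78-fold lower than PP in TPM. A list of 8 hepatic genes moved with ALDH1A1: its summed level was 4.15 TPM in hESCs, 48.5 in DE, then 1485 in PGT, 188 in PP, 48.9 in PH and 1495 in SC-β. TTR, a carrier of thyroxine and of the retinol-RBP4 complex, made up most of the last sum, with 1229 TPM in SC-β and 943 in PGT. Without TTR the other 7 genes summed to 541 TPM in PGT and 132 in PP but 267 in SC-β, so that they did not return to their PGT level as ALDH1A1 did. Of these 8 genes, 7 rose by at least 2-fold from DE to PGT, 5 fell so from PGT to PP and 3 rose so from PP to SC-β. Over all names at 1 TPM or more in either stage, the shares were 4.94%, 7.46% and 20.7%. The rest of the 8 genes were also higher in SC-β than in PP, by less than 2-fold on the log2 scale. TTR and FGB were listed at 0 in hESCs, and FGB and SERPINA1 in DE. The part of that list's cells in the ALDH1A1 result was not tested.

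ALDH1A2 (ENSG00000128918.15, chr15:57953424-58497866, − strand), the main embryonic enzyme of retinoic acid synthesis and a gene of mesoderm and mesothelium, was at 0.129 TPM in hESCs, 0.0248 in DE, then 0.828 in PGT, 1.44 in PP, 1.15 in PH and 25.6 in SC-β. Only SC-β was above 2 TPM. It was 17.8-fold higher in SC-β than in PP, with a log2 ratio of 3.45. A list of 10 mesenchymal genes gave summed levels of 86.5 TPM in hESCs, 66.9 in DE, then 98.3 in PGT, 180 in PP, 1013 in PH and 1938 in SC-β. Of these, 9 rose by at least 2-fold from PP to SC-β, beside 20.7% of all names. The same list also had 9 genes at least 2-fold higher in PH than in PP, beside 11.5% of all names. ALDH1A2 had a log2 ratio of -0.18 in PH over PP. LUM was listed at 0 in hESCs and DCN in DE, and the part of such cells in the ALDH1A2 result was not tested.

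ALDH1A3 (ENSG00000184254.17, chr15:100877714-100916626, + strand), a retinaldehyde dehydrogenase of sensory and other epithelia, was at 10.2 TPM in hESCs, 4.45 in DE, then 0.261 in PGT, 1.78 in PP, 2.40 in PH and 7.04 in SC-β. Its lowest stage, PGT, was the one where ALDH1A1 was at 136 TPM. It fell by 1.04 on the log2 scale at the step to DE and by 2.11 at the step to PGT, and rose by 1.14 to PP and by 1.53 to SC-β.

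The 3 synthesis enzymes summed to 10.9 TPM in hESCs, 6.70 in DE, then 137 in PGT, 33.5 in PP, 8.79 in PH and 178 in SC-β. ALDH1A3 supplied most of it in hESCs (93.5%) and DE (66.4%), and ALDH1A1 in PGT (99.2%), PP (90.4%), PH (59.7%) and SC-β (81.7%). Set against breakdown, the CYP26 sum was 58.5 times the ALDH1A sum in DE. From PGT on the order was the other way, with an ALDH1A sum 183 times the CYP26 sum in PGT, 5.05 times in PP, 1.96 times in PH and 18.2 times in SC-β. In hESCs it was 0.711 times. These are ratios of RNA levels within a stage and do not depend on the scaling between stages. The PGT ratio rests on a CYP26 sum of 0.750 TPM, with all 3 genes under 1 TPM, so its size is uncertain.

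**Figure D3:**
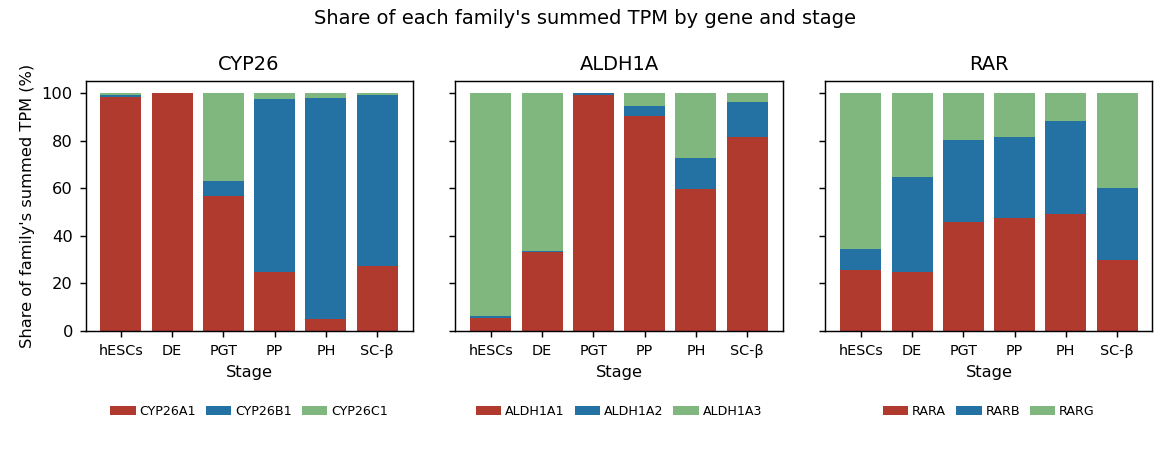
Share (%) of each family's summed mean TPM held by each gene at the 6 stages, as stacked bars that reach 100%. CYP26A1 held 99.9% in DE and CYP26B1 72.8% in PP, ALDH1A3 93.5% in hESCs and ALDH1A1 99.2% in PGT, while no receptor held more than 65.8% of the RAR sum.

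All 3 receptors were above 1 TPM at every stage. RARA (ENSG00000131759.18, chr17:40309180-40357643, + strand), the most widely expressed receptor, was at 4.41 TPM in hESCs, 11.9 in DE, then 14.9 in PGT, 25.7 in PP, 48.0 in PH and 23.5 in SC-β. It was lowest in hESCs and highest in PH, with a log2 ratio of 1.26 for DE over hESCs. Its antisense RNA RARA-AS1 overlaps it by 2270 bases and was at 0.366 TPM in hESCs, 1.38 in DE, then 1.18 in PGT, 3.87 in PP, 9.67 in PH and 3.18 in SC-β, also highest in PH. The labels name a stranded library kit, but whether reads were counted by strand is not given in the sources used here, so reads of RARA and RARA-AS1 in that overlap cannot be told apart.

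RARB (ENSG00000077092.20, chr3:24687887-25597932, + strand), the receptor gene that retinoic acid itself induces and whose window held the repeat printed above, was at 1.53 TPM in hESCs, 18.9 in DE, then 11.2 in PGT, 18.6 in PP, 38.3 in PH and 24.2 in SC-β. At the step to DE, RARB rose by 2.98 on the log2 scale (12.4-fold in TPM), a step with no retinoic acid listed in the medium. PP over PGT, the step across the 2000 and 100 nM media, had a log2 ratio of 0.69, under 2-fold. PH over PP was just past 2-fold, with a log2 ratio of 1.00.

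RARG (ENSG00000172819.17, chr12:53210567-53232980, − strand), a receptor of early embryo, skin and cartilage, was at 11.4 TPM in hESCs, 17.0 in DE, then 6.44 in PGT, 9.95 in PP, 11.3 in PH and 31.7 in SC-β. SC-β was its highest and PGT its lowest stage. It fell by 1.27 on the log2 scale from DE to PGT and rose by 1.58 from PP to SC-β. The RAR sum was 17.4 TPM in hESCs, 47.9 in DE, then 32.5 in PGT, 54.3 in PP, 97.6 in PH and 79.5 in SC-β. RARG led it in hESCs (65.8%) and SC-β (39.9%), RARB in DE (39.6%), and RARA in PGT (45.9%), PP (47.4%) and PH (49.2%).

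DHRS3 (ENSG00000162496.9, chr1:12567910-12618210, − strand) turns retinaldehyde back into retinol and so limits the substrate for synthesis. Its levels were 27.6 TPM in hESCs, 9.05 in DE, then 43.7 in PGT, 52.5 in PP, 53.8 in PH and 55.7 in SC-β. DE was its one low stage. At the step to DE it fell by 1.51 on the log2 scale, and at the step to PGT it rose by 2.15. From PGT on its levels lay within 43.7 to 55.7 TPM, and the log2 ratio of SC-β over PP, 0.08, became -0.18 after rescaling by median ratios.

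**Figure D4:**
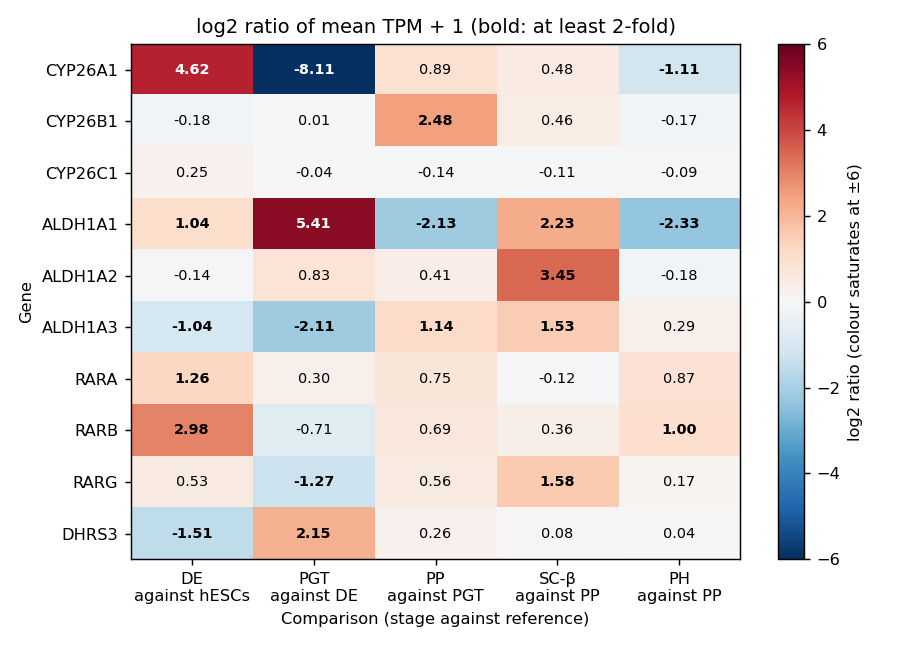
The log2 ratio of mean TPM + 1 for each of the 10 genes in the 5 comparisons, with colour from blue (lower) to red (higher) that saturates at 6, and values of at least 2-fold in bold. The extremes were 5.41 for ALDH1A1 and -8.11 for CYP26A1, both for PGT against DE, and no gene fell by 2-fold in SC-β against PP.

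Counted over the 10 genes, a change of at least 2-fold was read against the share of all names at 1 TPM or more in either stage. From hESCs to DE, 4 rose (CYP26A1, RARB, RARA and ALDH1A1) and 2 fell (DHRS3 and ALDH1A3), where 28.2% of 22514 names rose and 5.55% fell. At this step 7 of the 10 reached 1 TPM in either stage. The median log2 ratio was 0.39 for the 10 genes and 0.58 for all names. Rescaling each stage by median ratios shifted the log2 ratios of TPM at this step by -0.48. ALDH1A1 (0.79) and RARA (0.84) were then under 2-fold, which left 2 genes up and 2 down, where 16.2% of 22117 names rose and 10.7% fell.

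From DE to PGT, 2 rose (ALDH1A1 and DHRS3) and 3 fell (CYP26A1, ALDH1A3 and RARG), where 4.94% of 22862 names rose and 10.6% fell. Again 7 of the 10 reached 1 TPM in either stage, and the medians were -0.02 and -0.19. From PGT to PP, the step that spans the highest retinoic acid dose, 2 rose (CYP26B1 and ALDH1A3) and 1 fell (ALDH1A1), where 6.3% of 21378 names rose and 7.46% fell. The median was 0.62 for the 10 genes and -0.10 for all names. Of the classical target genes, CYP26A1 had a log2 ratio of 0.89, RARB 0.69 and DHRS3 0.26 at that step. CYP26A1 was 3.86-fold higher in TPM, from 0.426 to 1.65, and passed 2-fold on the log2 scale with a pseudocount of 0.1 TPM in place of 1 (1.73) and without the most abundant genes (1.36).

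From PP to SC-β, the step over which retinoic acid was lowered and then left out, 4 rose (ALDH1A2, ALDH1A1, RARG and ALDH1A3) and 0 fell, where 20.7% of 25090 names rose and 1.84% fell. After rescaling the shares were 14.3% and 3.07%, and the 4 genes were still past 2-fold. The medians were 0.47 and 0.45. All 3 synthesis enzymes were among the 4, and 0 of the 3 breakdown enzymes. In PH against PP, 1 was higher (RARB) and 2 were lower (ALDH1A1 and CYP26A1), where 11.5% of 21944 names were higher and 12.8% lower. RARA had a log2 ratio of 0.87, which came to 1.09 after rescaling, and then 2 genes were higher, where 14.9% of names were higher and 9.67% lower. At each of the last 3 comparisons 9 of the 10 genes reached 1 TPM in either stage, CYP26C1 being the one that did not.

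Markers of the labelled cells were read in the same table. POU5F1 was at 1449 TPM in hESCs, and SOX17, an endoderm factor, was highest in DE at 96.1. PDX1, which defines the pancreas, was listed at 0 in hESCs and DE and was at 3.17 TPM in PP and 1.57 in SC-β, and in SC-β insulin (INS) was at 298 TPM and GCG, the glucagon gene of α cells, at 2793. PH had PDX1 at 0.0173 TPM, SOX17 at 0 and a list of 10 neural genes at a sum of 699 TPM, against 94.8 in PP. Of these 10, 9 were at least 2-fold higher, beside 11.5% of all names. The mesenchymal list was higher in PH as well, at 1013 TPM against 180 in PP, also with 9 of 10 genes higher. The part of neural or mesenchymal cells in the PH levels of RARA, RARB and ALDH1A1 was not tested. The stages had 16784 to 24571 genes at 1 TPM or more, and structural RNAs took 31.8% to 50.9% of all TPM, most in PH.

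The other genes of the pathway were taken from 4 lists with 56 genes in the table, and STRA8, a germ cell target of retinoic acid, was not analysed here. Over the 56, 15 rose and 1 fell to DE, 8 rose and 9 fell to PGT, 17 rose and 8 fell to PP, and 25 rose and 4 fell to SC-β. Over all names at 1 TPM or more in either stage, 28.2% rose and 5.55% fell to DE, 4.94% and 10.6% to PGT, 6.3% and 7.46% to PP, and 20.7% and 1.84% to SC-β. The 56 were not held to that limit, and some were under 1 TPM in both stages. Their counts, and those by list below, are therefore not on the same footing as these shares. Over every name in the table, with no such limit, 12.9% rose and 2.55% fell to DE. In PH, 11 were higher and 10 lower than in PP, beside 11.5% and 12.8% of all names. The median log2 ratio at the step to PP was 0.26, against -0.10 for all names.

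Among 18 oxidoreductases and precursor enzymes, which supply retinaldehyde from retinol or carotenoids, 1 rose and 2 fell from PGT to PP and 9 rose and 0 fell from PP to SC-β, or 5 after rescaling. Over all names 6.3% rose and 7.46% fell at the first of these steps, and 20.7% rose at the second, or 14.3% after rescaling. RDH10, the retinol dehydrogenase that embryos depend on, went from 4.16 TPM in PGT to 11.8 in PP and 48.8 in SC-β. Its log2 ratios were 1.31 and 1.96, so that it rose at the SC-β step together with the 3 ALDH1A enzymes. ADH1B (-1.45) and BCO1 (-1.10), the enzyme that cleaves β-carotene, fell at the step to PP, and the alcohol dehydrogenase ADH1C rose by 2.40 at the step to SC-β.

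Among 10 genes of uptake, storage and binding, 4 rose and 3 fell from PGT to PP, beside 6.3% and 7.46% of all names. CRABP1, which carries retinoic acid in the cytoplasm, went from 2.77 to 209 TPM. STRA6, the membrane receptor that takes up retinol, went from 4.86 to 101 TPM. The blood carriers of retinol moved down at the same step, RBP4 from 22.0 to 0.186 TPM and TTR from 943 to 55.8, and TTR is also in the hepatic list. At the step to SC-β 3 rose and 1 fell, beside 20.7% and 1.84% of all names: TTR reached 1229 TPM, RBP2 went from 0.869 to 19.5 and CRABP2 from 563 down to 263. The retinoic acid carriers and STRA6 were thus high in PP, where the ALDH1A sum was 33.5 TPM, but not only there. In SC-β, where that sum was 178 TPM, CRABP1 was at 408 TPM and STRA6 at 119. In PH, CRABP1 was at 374 TPM, CRABP2 at 72.3 and STRA6 at 40.3.

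Among 9 receptor partners and coregulators, 7 rose and 0 fell from hESCs to DE, the step where RARA and RARB rose, and the median log2 ratio of all names was also highest at this step, 0.58. Over all names 28.2% rose. After rescaling 2 of the 9 rose, beside 16.2% of all names. From PGT to PP RXRA, the main partner of the RARs, fell from 44.8 to 14.1 TPM while RXRG rose from 0.0705 to 1.41. From PP to SC-β 3 rose, with a log2 ratio of 1.44 for RXRG among them, and 0 fell, beside 20.7% and 1.84% of all names.

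Genes known as retinoic acid responsive had their highest median log2 ratio at the step across the 2000 and 100 nM media. Of 19, 11 rose and 2 fell from PGT to PP, with a median of 1.65, beside 6.3% and 7.46% of all names. At the earlier steps 4 rose and 1 fell (to DE, median 0.07), where 28.2% of all names rose, and 5 rose and 2 fell (to PGT, median 0.16), where 4.94% rose and 10.6% fell. HOXA3, a gene of the HOX clusters that pattern the body axis, went from 0.106 TPM in PGT to 11.1 in PP. RARRES2 fell, with a log2 ratio of -1.59. At the step to SC-β 10 rose and 3 fell, with a median of 1.09, beside 20.7% and 1.84% of all names: RARRES3 went from 0.195 to 31.2 TPM and RARRES2 from 4.01 to 32.5, while HOXB1 fell from 12.3 to 0.212. Against PP, PH had 8 higher and 5 lower, beside 11.5% and 12.8% of all names.

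**Figure D5:**
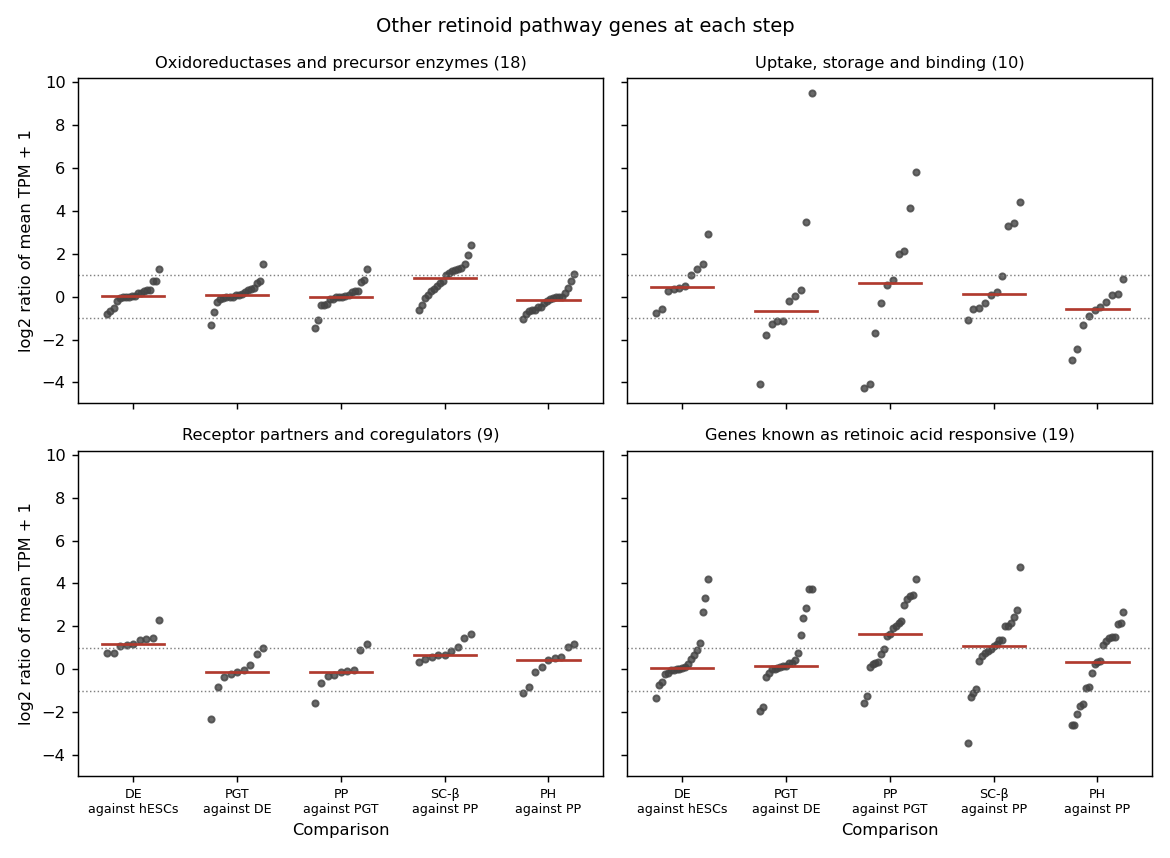
The log2 ratio of mean TPM + 1 of each gene of the 4 other lists in the 5 comparisons, ordered by value within a comparison, with red lines at the median and dotted lines at 2-fold. The retinoic acid responsive genes had a median of 1.65 in PP against PGT and the oxidoreductases 0.88 in SC-β against PP.

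Likeness to other genes was measured over the 6 stages as the root mean square difference of the centred log2(TPM + 1) profiles, among 13852 names that reached 5 TPM. The closest to CYP26A1 were EOMES (0.67), an endoderm factor, TRDN (0.78) and FGF17 (0.91). EOMES was at 172 TPM in DE and 0.353 in PGT. ALDH1A1 was closest to FGB (0.59), DDC (0.85) and SERPINA1 (0.89), of which FGB and SERPINA1 are in the hepatic list. ALDH1A2 was close to TMEM176A (0.18) and FLI1 (0.34).

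CYP26B1 was closest to ZEB2-AS1 (0.13), WNT3A (0.17) and RHOJ (0.19), which, like it, were low before PP. ALDH1A3 was closest to FHL2 (0.14), RPP25 (0.25) and MIR222HG (0.31). Of the receptors, RARA was closest to SOX11 (0.14), DNAH10OS (0.15) and SERP2 (0.18), RARB to IRX3 (0.29), CHD3 (0.31) and ZNF436 (0.32), and RARG to DSE (0.21), IGFBP4 (0.22) and PTGFRN (0.22). DHRS3 was closest to MORC4 (0.26), CDK14 (0.29) and UBE2L6 (0.30). CYP26C1 varied too little to be matched, with a span of 0.29 on the log2 scale. With 6 stages, many names can share a profile, and the measure says nothing of shared control.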

How the data were processed

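Mean TPM values were deposited for 6 stages. According to the methods and the submitters' processing notes, the authors aligned reads to hg38 with HISAT2 (version 2.2.0), estimated TPM with StringTie (version 2.1.6), and averaged 2 replicates per stage. The gene annotation and whether strand was used in counting are not given in the sources used here. The methods name ribosomal RNA removal, while the labels also name a stranded mRNA kit. TPM keeps no depth, so counting error is unknown.

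The 50451 entries were summed by name to 49085 names; 231 names had several entries. Ratios were log2 of TPM + 1, and 2-fold counted as a change. Shares of all names used those at 1 TPM or more in either stage. Levels were rescaled, as an alternative, by median ratios over 13938 names at 1 TPM or more in every stage. The calling code was checked on simulated data, which tests the code and not the comparisons of stages. Python 3.11.15, numpy 2.4.6, pandas 2.3.3 and matplotlib 3.10.9 were used. Gene positions came from GENCODE release 44.

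All 10 genes were named. From the 4 other lists, the 2 with the largest rise and the 2 with the largest fall of at least 2-fold were named for PP against PGT and SC-β against PP, and for each of the 10 genes spanning at least 2 on the log2 scale, the 3 most alike genes; some genes that these rules pick are not reported here. Members and lists were chosen with earlier results of these data known. Alternatives were another pseudocount, rescaling, removal of abundant genes, a 4-fold limit and hESCs as the reference.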

Additional observations from a re-analysis of the deposited data

How the results depend on the processing

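No paired analysis was possible because the table holds 1 mean of 2 replicates per stage, and for the same reason no replicate could be left out. Rescaling by median ratios shifted log2 ratios of TPM by -0.48 (DE against hESCs), 0.15 (PGT against DE), 0.09 (PP against PGT), -0.27 (SC-β against PP) and 0.22 (PH against PP). It kept the call of 47 of 50 ratios of the 10 genes. It left 2 genes higher in DE and made 2 higher in PH, where RARA came to 1.09. Of the 56 other genes 9 rose and 3 fell in DE. Signs turned in 3 of 100 ratios over both scalings, DHRS3 in SC-β under both (-0.18 and -0.16) and CYP26B1 in PH (0.01), all under 2-fold.

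Without mitochondrial and the 100 most abundant genes, 47 of 50 calls were kept. RARA in PH (1.09), ALDH1A2 in PGT (1.41) and CYP26A1 in PP (1.36) then passed 2-fold, so that 2 genes were higher in PH. With a pseudocount of 0.1 TPM, 46 were kept, and CYP26B1 (-1.01) and CYP26C1 (1.02) in DE, ALDH1A2 in PGT (2.89) and CYP26A1 in PP (1.73) passed. Of the other 56 genes 23 rose and 5 fell in DE, 13 rose in PGT and 19 were lower in PH. At 4-fold, 2 rose and 0 fell in DE, 1 rose in PP, 2 rose in SC-β, and 0 were higher and 1 lower in PH. No share of all names is given here at 4-fold or with the pseudocount of 0.1 TPM, so the counts at these settings cannot be read against one.

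Set against hESCs in place of the stage before, directions turned for RARB in PGT (2.26), for CYP26A1 (-2.60), ALDH1A1 (4.31) and ALDH1A3 (-2.01) in PP, for CYP26A1 (-2.12), ALDH1A3 (-0.48) and RARA (2.18) in SC-β, and for CYP26B1 (2.14), ALDH1A1 (1.99) and ALDH1A3 (-1.72) in PH. In these, 1 or both ratios were past 2-fold; 6 more turned with both under 2-fold. Such turns follow from the other reference. Means without replicate values limit every statement.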
